A study of Mus musculus with 55 samples.

Results

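Neurons of the mouse prefrontal cortex were divided by their level of Arc, an activity-regulated gene, into Arc-high and Arc-low cells. Members were the cells that passed quality control, had a read in at least 4000 gene symbols and so could be compared across many genes, and they were selected on the measured Arc level itself: at least 100 counts per 1000000 (CPM) in Arc-high cells and less in Arc-low cells. Of the 55 samples of the series 54 passed, 34 of these were gene-rich enough, and 25 were Arc-high and 9 Arc-low. A patch pipette had taken the cytosol of 1 pyramidal neuron for each sample, and each was sequenced on its own.

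The cells belonged to 4 groups by the labels: Fmr1-/y D1, Fmr1-/y D2, and D1 and D2 cells with the genotype label "No Knock Out". Cells with the label "No Knock Out" are called wild-type here and the Fmr1-/y cells knockout; neither strain was given in the sources used here. Fmr1 encodes FMRP, an RNA-binding protein whose loss causes fragile X syndrome, and the knockout allele is not limited to a cell type. D1 and D2 are names of dopamine receptor classes; the sources used here do not give how a cell was assigned to its class. Among the cells compared, knockout D1 cells came from mice aged 31 and 32 days, knockout D2 cells from 32 days, and, of the wild type, D1 cells from 28 to 34 and D2 cells from 29 to 35 days of age. The labels leave the animals unnamed. Cells of 1 animal are not independent, so Arc-high and Arc-low cells were each taken as 1 sample, no test was made and no p-value is given. Exact intervals are over numbers of cells and treat cells as independent, so they leave out any spread between animals. Count floors cover counting error of reads only, and amplified reads were counted without molecular identifiers.

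Arc is an immediate early gene: its transcription begins within minutes of strong synaptic input, without new protein, through calcium entry and the kinases that activate CREB, SRF and MEF2 factors. Its mRNA travels into dendrites, where Arc protein drives AMPA-type glutamate receptors off the synaptic surface. A first wave of such genes encodes transcription factors, among them Npas4, Fos, Junb, Egr1 and Nr4a1. Other activity-regulated genes encode effectors such as Bdnf, Pcsk1 and the Dusp phosphatases that switch off MAP kinases. Arc mRNA is also a target of FMRP.

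Arc (chromosome 15, 74669083 to 74672570, minus strand, GRCm38) chose the members, so its values are a description. It ranged from 104 to 3221 CPM with a median of 495 CPM in Arc-high cells, and from 0 to 75.8 CPM with a median of 0 in Arc-low cells. The cells just inside the threshold were wild-type D1 cell 1 at 104 CPM, from 1107 reads, and wild-type D2 cell 3 at 171 CPM, and the cell just outside was wild-type D2 cell 13 at 75.8 CPM, from 461 reads. Below it came knockout D2 cells 6 and 2 at 17.4 and 11.5 CPM and wild-type D1 cell 13 at 3.78 CPM, and the remaining 5 Arc-low cells had no read of Arc. So 1 Arc-low cell lay near the threshold and the other 8 lay far below it.

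Knockout D2 cells made up 5 of the 9 Arc-low cells. Arc was high in 6 of 6 knockout D1 cells (100%, exact Clopper-Pearson 95% interval 54.1 to 100%) and 1 of 6 knockout D2 cells (16.7%, interval 0.421 to 64.1%). Among wild-type cells it was high in 7 of 9 D1 (77.8%, interval 40 to 97.2%) and 11 of 13 D2 cells (84.6%, interval 54.6 to 98.1%). These intervals treat cells as independent, which cells of 1 animal are not, so they are not used to compare genotypes or kinds. Over both kinds, 7 of 12 knockout cells (58.3%, interval 27.7 to 84.8%) and 18 of 22 wild-type cells (81.8%, interval 59.7 to 94.8%) were Arc-high; over both genotypes, 13 of 15 D1 cells (86.7%) and 12 of 19 D2 cells (63.2%) were.

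In levels, the order of the medians was knockout D1 cells at 803 CPM (265 to 3221), wild-type D2 cells at 430 CPM (0 to 1223), wild-type D1 cells at 406 CPM (0 to 2062) and knockout D2 cells at 5.73 CPM (0 to 240). The highest knockout D2 cell lay below the lowest knockout D1 cell. The first 3 groups overlapped over most of their ranges. The wild-type means were 584 ± 703 CPM in D1 cells (SD over 9 cells) and 447 ± 329 CPM in D2 cells (SD over 13 cells), a spread between cells and not between animals. Age did not separate the knockout kinds: at 32 days Arc was high in 5 of 5 knockout D1 but in 1 of 6 knockout D2 cells. Both Arc-low wild-type D1 cells were 30 days old, and they were the only gene-rich wild-type D1 cells of that age. Because no animal is named, an animal in which Arc was low in every cell and a group in which it was low cannot be told apart.

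**Figure D1:**
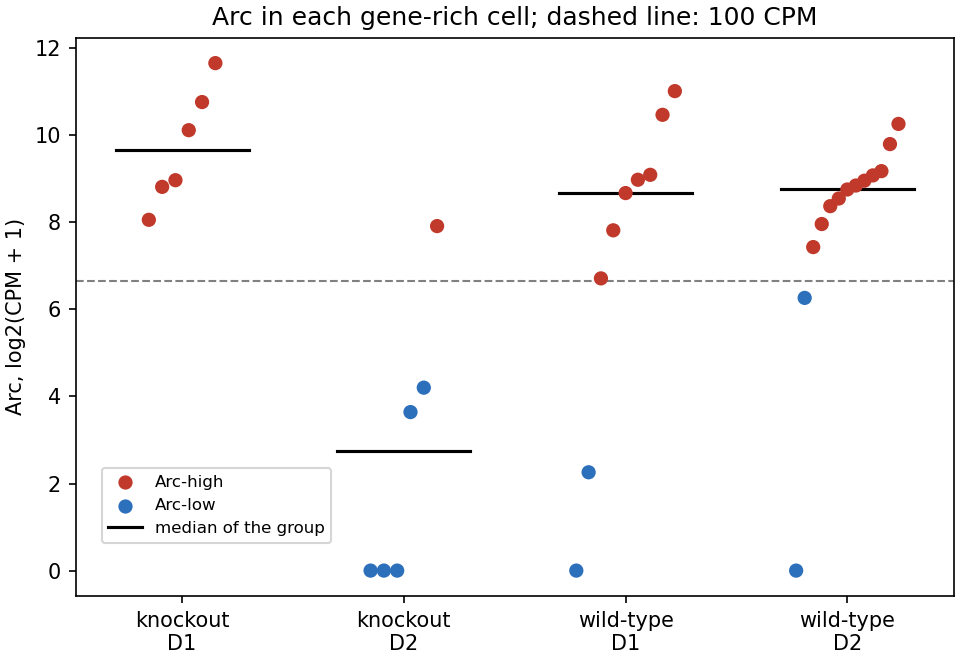
Arc level of each gene-rich cell, as log2(CPM + 1), by genotype and kind; points are cells, black bars are group medians and the dashed line is the threshold of 100 CPM. All 6 knockout D1 cells lie above the line and 5 of 6 knockout D2 cells below it, while 18 of 22 wild-type cells lie above.

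Pyramidal identity was looked at first, by 1 marker in both groups. Single cells of both also held markers of other cell types. The interneuron marker mean, in log2(CPM + 1), reached 3.70 in Arc-high wild-type D1 cell 12. In Arc-low wild-type D1 cell 10 it reached 4.49. Slc17a7, the vesicular glutamate transporter of cortical excitatory neurons, had reads in all 25 Arc-high and all 9 Arc-low cells, at 106 to 1056 CPM (median 450) in Arc-high and 83.2 to 567 CPM (median 332) in Arc-low cells. Drd1 had reads in 4 of 25 Arc-high and 3 of 9 Arc-low cells and Drd2 in none of either, so the D1 and D2 labels cannot be read from their own receptors in these libraries. Fmr1 had no read in the 12 knockout cells but was read in most wild-type cells, 8 of 9 of the D1 kind and 10 of 13 of the D2 kind. Total counts ran from 2644138 to 10673072 in Arc-high cells and from 2002287 to 9680476 in Arc-low cells, and genes with a read from 5258 to 9938 (median 7291) in Arc-high and from 4266 to 8574 (median 6487) in Arc-low cells. The mitochondrial share of counts reached 4.49% in Arc-high cells (median 1.12%), against 16.6% in Arc-low cells (median 5.06%), and its part in the differences below was not tested.

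Across the transcriptome, more genes were higher in Arc-high cells than lower. Differences are Arc-high minus Arc-low, in mean log2(CPM + 1) with equal weight for every cell, a scale that understates changes of low genes; a gene counts as past the fold at 2 log2 units. Of 11905 genes that averaged at least 1 CPM and were read in 10% or more of the cells, 960 were at least 2 higher in Arc-high cells (8.06%) and 112 at least 2 lower (0.941%). The median of all measured genes was 0.48, so differences of gene lists are read against that shift and not against 0. Many large differences come from the share of cells with no read, so the number of cells with a read stands beside each.

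The transcription factors of the first wave were mixed. Measured were 24 of 26 listed factors; 4 were past 2 log2 units higher, Npas4, Junb, Nr4a1 and Ier2, and none was past it lower, beside 8.06% and 0.941% of all genes, and the median was 0.60 against 0.48 over all genes. Of the 24, 16 lay above the median of all genes. The per-cell mean over the list was 4.15 ± 1.06 in Arc-high cells (SD, n = 25) and 3.19 ± 0.71 in Arc-low cells (SD, n = 9), on the log2(CPM + 1) scale. Fosb, Nr4a3 and Cebpb had differences of -0.14, -0.40 and -0.11. Within wild-type D2 cells the median of the list was -0.53, against 0.59 over all genes, and within wild-type D1 cells 0.40, against 0.91.

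The promoters of the 3 first-wave factors with the largest differences are printed because these members differed most, and because CREB, one of the factors that answer calcium entry, binds the cAMP response element in such promoters. They are the 250 bases before the RefSeq start on build GRCm38.p6, read 5′ to 3′ on the gene's strand. Capitals mark the short element TGACG or its reverse complement CGTCA, and in Junb also the core TCGTG named for NPAS4 binding.
Npas4 (chr19:4989972-4990221, minus strand): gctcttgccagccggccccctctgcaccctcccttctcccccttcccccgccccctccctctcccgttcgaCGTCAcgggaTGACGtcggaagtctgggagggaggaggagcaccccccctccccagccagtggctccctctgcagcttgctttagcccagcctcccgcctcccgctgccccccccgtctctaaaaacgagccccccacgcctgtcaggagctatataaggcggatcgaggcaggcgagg
Junb (chr8:84978749-84978998, minus strand): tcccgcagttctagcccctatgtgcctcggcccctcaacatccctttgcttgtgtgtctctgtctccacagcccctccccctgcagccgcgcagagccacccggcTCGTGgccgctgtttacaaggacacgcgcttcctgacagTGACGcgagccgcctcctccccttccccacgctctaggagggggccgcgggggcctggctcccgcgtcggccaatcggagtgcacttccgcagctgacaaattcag
Nr4a1 (chr15:101266596-101266845, plus strand): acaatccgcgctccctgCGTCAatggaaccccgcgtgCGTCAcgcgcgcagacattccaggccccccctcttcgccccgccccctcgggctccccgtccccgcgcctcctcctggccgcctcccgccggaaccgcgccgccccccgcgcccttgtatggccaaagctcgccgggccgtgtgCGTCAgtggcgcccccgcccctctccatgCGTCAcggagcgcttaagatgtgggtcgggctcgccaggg

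The short element stood at -179 and -169 (first base, counted from the start) in Npas4, at -106 in Junb and at -233, -213, -69 and -40 in Nr4a1. Both strands were searched for 6 motifs: the complete element TGACGTCA, its short form TGACG, which overlaps it, the AP-1 site TGANTCA, the CArG box of SRF, the core TCGTG and the TATA box TATAAA; letters of the other 4 kinds were not found in these 3 windows, which says nothing of the factors. The short element was in 17.9% of 32536 promoters of the table, and by gene in 15 of 19 matched first-wave factors and 13 of 27 matched effectors, against 19.9% of 26734 genes. The complete element was in 1 of 19 factors and 7 of 27 effectors, against 1.78% of genes. The lists hold genes known for such promoters, so these counts describe the lists and draw nothing about the cells measured here. Arc has no entry in this table.

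Npas4, a neuron-specific factor induced by calcium entry and the other marker of this activity state, had reads in 18 of 25 Arc-high cells (72%, interval 50.6 to 87.9%) and 4 of 9 Arc-low cells (44.4%, interval 13.7 to 78.8%). It ran from 0 to 843 CPM with a median of 106 CPM in Arc-high cells, against 0 to 370 CPM with a median of 0 in Arc-low cells, a difference of 2.81 log2 units. The groups overlapped: 7 Arc-high cells lacked it, and wild-type D2 cell 18, without a read of Arc, had the 370 CPM. The high values sat largely in knockout D1 cells, all Arc-high, which averaged 442 ± 326 CPM (SD, n = 6), against 50.2 ± 84.6 CPM in knockout D2 cells (SD, n = 6), 69.8 ± 97.5 CPM in wild-type D1 cells (SD, n = 9) and 84.2 ± 108 CPM in wild-type D2 cells (SD, n = 13). In wild-type cells alone mean Npas4 was 75.1 CPM in Arc-high cells (12 of 18 with a read), against 92.9 CPM in Arc-low cells (2 of 4 with a read), although the difference of mean logs was 1.67. It was 4.04 within wild-type D1 and -0.76 within wild-type D2 cells, each with 2 Arc-low cells.

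Junb, a partner of Fos in AP-1, ran from 0 to 3763 CPM (median 359) in Arc-high cells, against 0 to 930 CPM (median 152) in Arc-low cells, with reads in 24 of 25 Arc-high and 6 of 9 Arc-low cells; 173 of its exon bases lie opposite Prdx2. Its difference was 2.52 over all cells, 4.01 within wild-type D1 cells and -2.46 within wild-type D2 cells, whose 2 Arc-low cells had 930 and 369 CPM. The highest values belonged to knockout D1 cell 6 (3763 CPM), which also had the highest Arc, and knockout D1 cell 4 (1760 CPM).

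Nr4a1, an orphan nuclear receptor, depended on which cells were compared. It ran from 9.83 to 1583 CPM (median 146) in Arc-high cells, against 0 to 1199 CPM (median 27.8) in Arc-low cells, a difference of 2.46. The low values were those of knockout D2 cells: in wild-type cells the difference was -1.26, and with kind and genotype as a term 0.05. Wild-type D1 cell 10, which had no read of Arc, had 1199 CPM of Nr4a1.

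Ier2, a nuclear protein induced with Fos, had reads in 16 of 25 Arc-high and 4 of 9 Arc-low cells, with a median of 36.4 CPM in Arc-high and 0 CPM in Arc-low cells and a difference of 2.34. The difference was 5.13 within wild-type D1, 3.29 within wild-type D2 and -2.97 within knockout D2 cells, the last with 1 Arc-high cell. Fos, the classic activity marker, had medians of 263 CPM in Arc-high cells and 60.4 CPM in Arc-low cells and a difference of 1.48. It was found in all 9 Arc-low cells, at up to 318 CPM, while 4 of 25 Arc-high cells lacked it. Egr4 had medians of 173 CPM in Arc-high and 86.0 CPM in Arc-low cells and a difference of 1.88. Egr1, which binds GC-rich promoters and is high in cortex at rest, hardly followed the division: its medians were 271 CPM in Arc-high and 232 CPM in Arc-low cells, it had reads in every cell, and its difference of 0.60 lay near that of all genes.

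The activity-regulated effectors had the higher median of the 2 activity lists. Time of induction was not measured. Of 31 measured members 9 were at least 2 log2 units higher and none at least 2 lower, beside 8.06% and 0.941% of all genes, and the median was 1.40 against 0.48. Of the 31, 21 lay above the median of all genes, a share like that of the first-wave factors. Within wild-type D1 cells the median was 1.92, against 0.91 over all genes, but within wild-type D2 cells 0.67, against 0.59. The per-cell mean over the list was 4.35 ± 1.03 in Arc-high cells (SD, n = 25), against 3.02 ± 0.95 in Arc-low cells (SD, n = 9). Of the 55 measured genes of both lists, a median of 21 (11 to 33) stood at 100 CPM or more in Arc-high cells, against a median of 13 (8 to 23) in Arc-low cells. The ranges overlap, and the highest cell was knockout D1 cell 4 with 33 such genes.

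Phosphatases of MAP kinases were 3 of the 9, and Dusp1 led the list. Dusp1, which inactivates p38, JNK and ERK, ran from 0.151 to 1647 CPM (median 386) with reads in all 25 Arc-high cells, against 0 to 680 CPM (median 2.71) with reads in 6 of 9 Arc-low cells. Its difference of 4.81 stayed between 4.38 and 5.56 when each cell was left out in turn, and it was 5.66 within wild-type D1, 3.43 within wild-type D2 and 6.32 within knockout D2 cells, the last with 1 Arc-high cell. Of the Arc-low cells, wild-type D2 cell 13 had the 680 CPM, and it is the cell just under the Arc threshold; knockout D2 cell 1 followed at 114 CPM and the other 7 were below 100. Dusp14 had medians of 207 CPM in Arc-high and 28.2 CPM in Arc-low cells and differed by 2.74. Dusp6, specific for ERK, had medians of 168 CPM in Arc-high and 139 CPM in Arc-low cells and differed by 2.16. Within wild-type D2 cells the differences of Dusp14 and Dusp6 were -0.52 and -0.74.

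Gadd45g, Grasp, Pcsk1 and Bdnf were higher within both wild-type kinds and in knockout D2 cells. Gadd45g, a growth arrest and DNA-damage family member, had medians of 163 CPM in Arc-high and 2.12 CPM in Arc-low cells and a difference of 3.41. Grasp, the scaffold of metabotropic glutamate receptors also called tamalin, was read in 22 of 25 Arc-high and 4 of 9 Arc-low cells and differed by 3.35. Pcsk1, the convertase that cleaves neuropeptide precursors and pro-BDNF, was read in 17 of 25 Arc-high cells, at up to 308 CPM, against 3 of 9 Arc-low cells, at up to 15.2 CPM, and differed by 3.34. Bdnf itself, the neurotrophin made on activity, ran from 0 to 1147 CPM (median 126) in Arc-high cells, against 0 to 305 CPM (median 3.25) in Arc-low cells, and differed by 2.49; 896 of its 6217 exon bases lie opposite exons of Gm45346, and without known strand such reads cannot be told apart.

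Sgk1, a kinase that acts on ion channels, was higher in these groups too, with medians of 108 CPM in Arc-high and 0 CPM in Arc-low cells and a difference of 2.60. Arl4d, a small GTPase, differed by 2.35 and was the only one of the 9 with a difference below 0 within knockout D2 cells, at -1.75. Other well-known members differed by less: Homer1, the postsynaptic scaffold, at 1.33, the neuronal pentraxin Nptx2 at 0.07, Gadd45b at 0.50 and Ptgs2 (COX-2) at -0.54. Acan of this list had no read in any of the 34 cells.

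**Figure D2:**
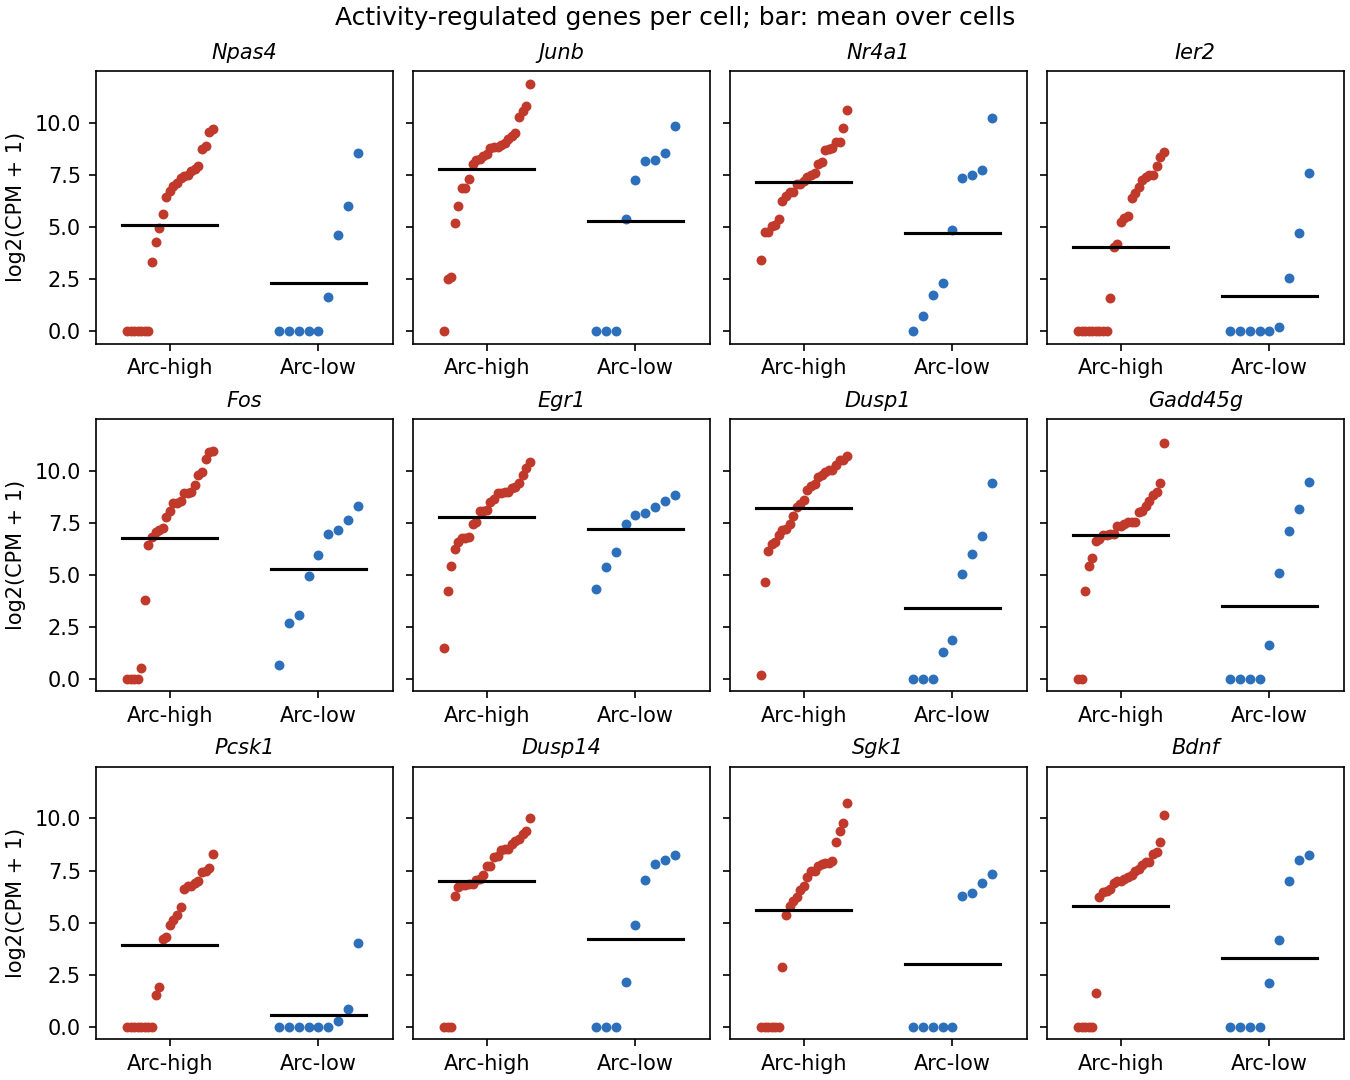
Level of 12 activity-regulated genes in each Arc-high (left, red) and Arc-low cell (right, blue), as log2(CPM + 1); points are cells and bars are means over cells. Dusp1, Gadd45g and Pcsk1 are below 3 CPM in at least 5 of the 9 Arc-low cells, while Egr1 spans like ranges in both groups.

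Machinery upstream and downstream of Arc stood close to the other genes. Of 37 measured genes that carry synaptic signals to the nucleus 2 were past 2 log2 units higher and none lower, beside 8.06% and 0.941% of all genes, and their median was 0.46. Mkl1, a coactivator of SRF, differed by 2.50; Creb1 differed by 0.39, Srf by 1.45 and Mef2c by 0.21. The 12 NMDA receptor and L-type calcium channel genes had a median of 0.17, with 1 higher, the channel subunit Cacnb4 at 2.05. That median ran from -0.31 to 0.44 when each cell was left out, the -0.31 without wild-type D1 cell 10, so its sign turned on 1 cell.

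Of 28 genes whose proteins bind Arc or move AMPA receptors 4 were past 2 log2 units higher, beside 8.06% of all genes, among them Dnm3, a dynamin, at 2.49, the endophilin Sh3gl1 at 2.23 and Rnf216, a ubiquitin ligase of Arc, at 2.01. None was past it lower; Cacng2 (stargazin) differed by -1.88 and Dlg4 (PSD-95) by -1.61. The median was 0.48, and 0.21 without wild-type D1 cell 10. For Dlg4 the difference was -2.89 within wild-type D1, -3.49 within wild-type D2 and 0.56 within knockout D2 cells.

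Genes that act on Arc mRNA had a median of 1.01, against 0.48 over all genes, and 3 of 20 were past 2 log2 units higher, beside 8.06% of all genes. Stau2, which carries RNA into dendrites, had medians of 149 CPM in Arc-high and 13.5 CPM in Arc-low cells and a difference of 3.20, and it was higher within wild-type D1 (3.77), wild-type D2 (6.93) and knockout D2 cells (3.31). Upf2, a factor of nonsense-mediated decay, for which Arc mRNA is a natural substrate, differed by 2.34, and Eif4e, the cap-binding factor, by 2.10. Fmr1 differed by 1.80 over all cells, of which the knockout cells, all at 0, are a part; in wild-type cells it differed by 0.89, with mean levels of 95.6 CPM in Arc-high and 97.2 CPM in Arc-low cells. In knockout cells alone the median of this list was -0.03.

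**Figure D3:**
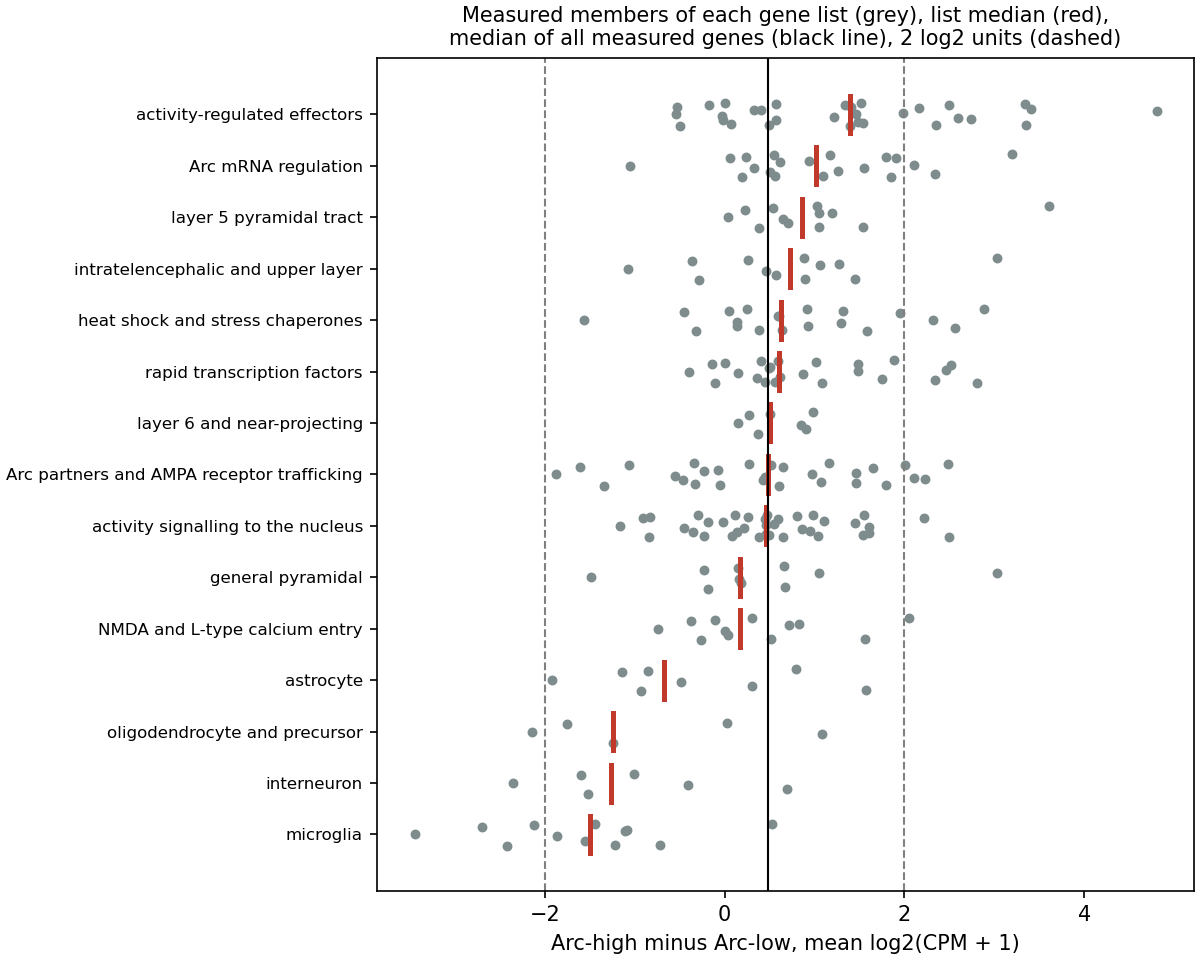
Difference of each measured list member (grey points), Arc-high minus Arc-low, in mean log2(CPM + 1), with the list median (red bar), the median of all measured genes at 0.48 (black line) and 2 log2 units either way (dashed). Of the lists drawn, the activity-regulated effectors have the highest median, 1.40, and the microglia markers the lowest, -1.50.

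Among the 12 genes per direction named for the size of their difference, Dusp1 was the only one from the activity lists. They were taken by a rule: the same direction within wild-type D1 and wild-type D2 cells, and the largest difference left when each cell in turn is removed. Of 9087 genes considered, 3378 were higher within both wild-type kinds and 887 lower. Dusp11, a phosphatase that acts on RNA and no MAP kinase, came first: it was read in 22 of 25 Arc-high cells, at up to 701 CPM with a median of 102 CPM, against 2 of 9 Arc-low cells, at no more than 0.199 CPM, and differed by 5.69. At or above 100 CPM of Dusp11 stood 13 of 25 Arc-high and none of the 9 Arc-low cells. The rule chose Dusp11 for this difference, and it met the level filter through Arc-high cells only. The separation is therefore a description of the choice.

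The chromogranins, acidic proteins that load dense-core vesicles with neuropeptides, were higher as a pair. Chga was read in 23 of 25 Arc-high cells (median 139 CPM, up to 433), against 4 of 9 Arc-low cells (median 0, up to 42.9), and differed by 5.04. Chgb was read in 21 of 25 Arc-high cells (median 97.9 CPM), against 6 of 9 Arc-low cells (median 0.35 CPM), and differed by 4.50. Within knockout D2 cells the differences of Chga and Chgb were 3.89 and 1.22. Pcsk1 and Vgf, whose products work in the same vesicles, differed by 3.34 and 1.51, and Scg2, a granin too, by 1.46.

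Higher genes of varied roles followed. Pdia6, a disulfide isomerase of the endoplasmic reticulum, had medians of 334 CPM in Arc-high and 1.04 CPM in Arc-low cells and differed by 4.38. Psmd2, of the proteasome's regulatory particle, had medians of 262 CPM in Arc-high and 1.81 CPM in Arc-low cells and differed by 4.55. Smpd1, the acid sphingomyelinase of lysosomes, differed by 4.49, but by only 1.65 within wild-type D1 cells. Vstm2a, an immunoglobulin-domain protein, had medians of 108 CPM in Arc-high and 0 CPM in Arc-low cells and differed by 4.30. Tlk2, a kinase of chromatin assembly, had medians of 43.1 CPM in Arc-high and 0.597 CPM in Arc-low cells and differed by 4.37; 775 of its exon bases lie opposite another gene. Surf2 differed by 4.31; 281 of its 3408 exon bases lie opposite exons of Surf1 and Surf4, and reads of such stretches cannot be assigned where strand is not known.

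No Arc-low cell had a read of Nln or Slc25a33. Nln, the peptidase neurolysin that cleaves neurotensin, was read in 20 of 25 Arc-high cells at up to 280 CPM, and 0 of 9 Arc-low cells has an exact upper bound of 33.6%. In summed counts it was at least 1002-fold higher in Arc-high cells, against a floor of 3 counts over all Arc-low cells (0.0637 CPM). This floor covers counting of reads pooled over cells and not the spread between cells. Nln was chosen for its difference and met the level filter through Arc-high cells only. Slc25a33, a mitochondrial carrier of pyrimidine nucleotides, was read in 17 of 25 Arc-high cells at up to 268 CPM. It was at least 1166-fold higher by the same floor, with the same limits. In the 6 knockout D2 cells both genes were without a read in the 5 Arc-low cells and were read in the 1 Arc-high cell, at 1.68 CPM of Nln and 14.4 CPM of Slc25a33.

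The 12 genes lower in Arc-high cells had differences of -2.53 to -3.65. Cyb5b, a cytochrome b5 of the outer mitochondrial membrane, had a median of 0.214 CPM with reads in 13 of 25 Arc-high cells, against 133 CPM with reads in 8 of 9 Arc-low cells, and differed by -3.59. Rpp25l, related to a subunit of RNase P, was read in 4 of 25 Arc-high and 6 of 9 Arc-low cells and differed by -3.65. Gys1, glycogen synthase, had medians of 0 CPM in Arc-high and 75.2 CPM in Arc-low cells and differed by -3.02. Nop14, of small ribosomal subunit assembly, had medians of 0.681 CPM in Arc-high and 90.4 CPM in Arc-low cells and differed by -3.10. The remaining neuronal or widely used genes were Dph3 (-3.08), Asnsd1 (-3.24), Zfp354c (-2.84), Ppp2r4 (-2.65), Pi4k2a (-2.71) and Polr2l (-2.53).

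Several of these did not keep their size. In knockout D2 cells Rpp25l, Asnsd1 and Ppp2r4 were higher in the 1 Arc-high cell, by 2.09, 2.39 and 2.00. Polr2l, a subunit common to RNA polymerases, was read in 20 of 25 Arc-high cells (median 4.47 CPM), against 9 of 9 Arc-low cells (median 41.3 CPM), yet differed by only -0.91 in wild-type cells. Of the 3528 exon bases of Asnsd1, 1994 are shared with Asdurf and Gm28551 on the same strand, so its counts are uncertain.

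**Figure D4:**
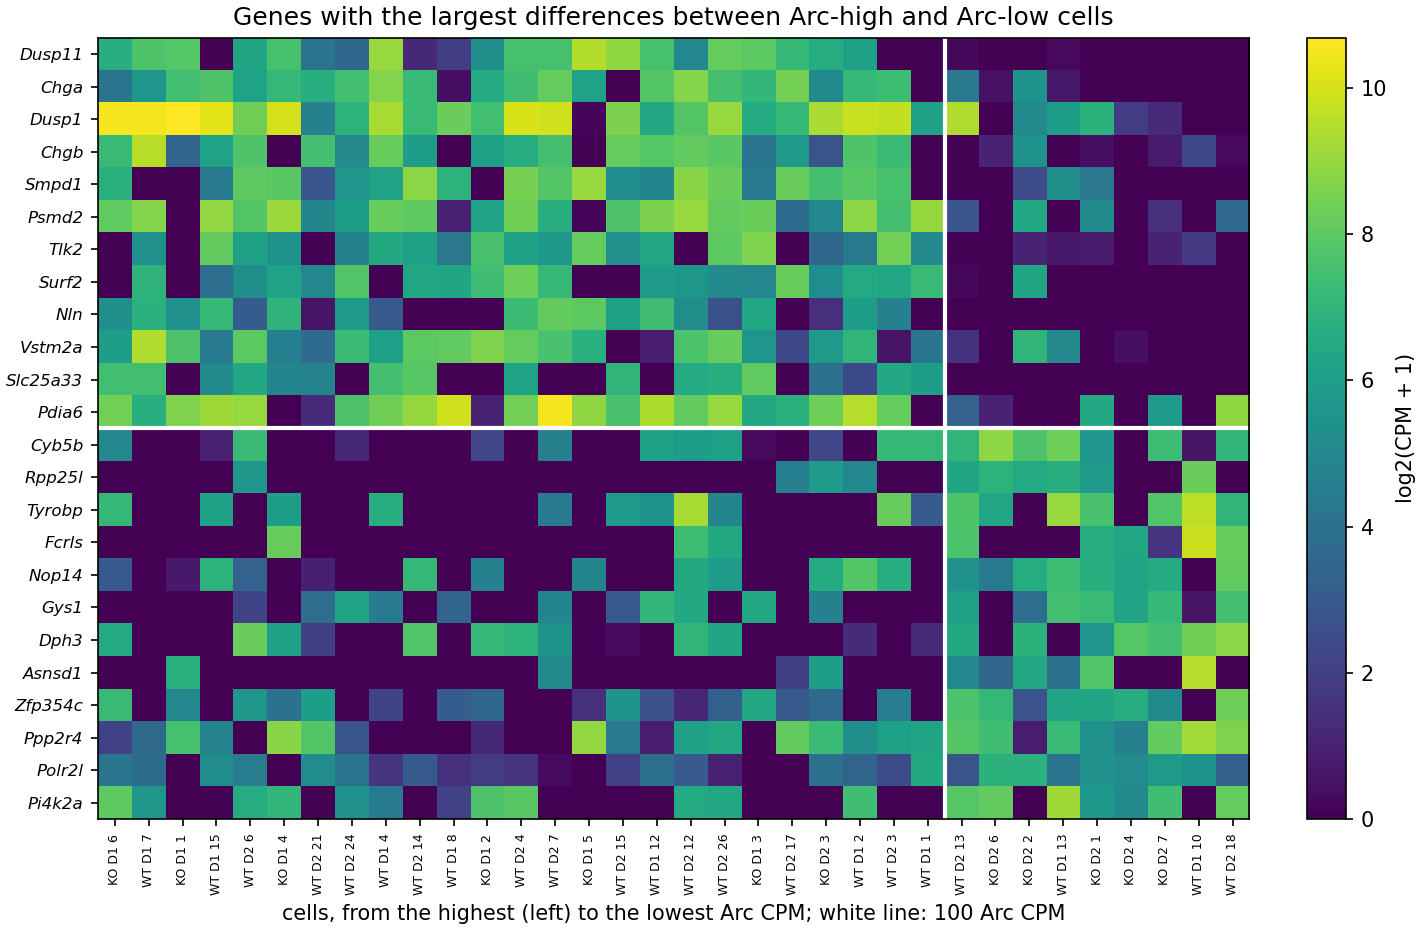
Level, as log2(CPM + 1), of the 12 genes per direction named by that rule (rows) in every cell (columns), ordered from the highest Arc CPM on the left to the lowest on the right; the vertical white line is the threshold of 100 Arc CPM and the horizontal one parts higher from lower genes. The rule chose the upper rows for being higher left of the line, so that pattern describes the choice. Right of the line they are mostly dark, Dusp11 at no more than 0.199 CPM in the 9 Arc-low cells. Some Arc-high cells are dark in them too, such as knockout D1 cell 1 for Slc25a33.

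Tyrobp and Fcrls among the lower genes are genes of microglia, the resident macrophages of the brain. Tyrobp, the signalling adaptor DAP12, was read in 11 of 25 Arc-high cells (median 0, up to 627 CPM), against 7 of 9 Arc-low cells (median 197 CPM, up to 792), and differed by -3.45. Fcrls was read in 3 of 25 Arc-high and 6 of 9 Arc-low cells and differed by -3.61. Of 12 measured microglia markers 4 were at least 2 log2 units lower (Tyrobp, Fcer1g, P2ry12 and C1qa), beside 0.941% of all genes, and the median was -1.50. Their summed level ran from 0.319 to 5286 CPM (median 269) in Arc-high cells, against 39.6 to 10988 CPM (median 806) in Arc-low cells. No marker was at 0 in all cells; Tmem119, specific to microglia in the brain, had reads in 2 of 25 Arc-high and 1 of 9 Arc-low cells.

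This signal sat in few cells. Without wild-type D1 cell 10 the median of the microglia list was -0.85, and without knockout D2 cell 1 it was -0.98. The median of the microglia list was -5.97 within wild-type D1 cells, whose 2 Arc-low cells had list means of 7.97 and 8.44, and -0.18 within wild-type D2 cells, where Arc-high cell 12 had the highest list mean of all, 8.46. Markers of oligodendrocytes were also lower (median -1.24, 1 of 5 past 2 lower, Mobp at -2.14). So were those of interneurons (-1.27, 1 of 6, Gad1 at -2.36) and astrocytes (-0.67, 0 of 8), beside 0.941% of all genes past 2 lower. Yet each of these lists was near 0 or above within wild-type D2 cells, at 0.29, 0.30 and 0.01. Without wild-type D1 cell 10 the medians were -0.42 for oligodendrocytes, -0.64 for interneurons and -0.22 for astrocytes, and without knockout D2 cell 4 it was -0.18 for astrocytes. Endothelial and mural markers were nearly absent, with 1 of 8 measured (Rgs5, 0.67). A pipette that took up more material of such cells and one that took up less RNA of the neuron cannot be told apart. With the 4 Arc-high and 3 Arc-low cells above 1000 CPM of microglia markers left out, the microglia median was -0.19, the median of the effectors was 0.77 and that of the first-wave factors 0.33, against 0.44 over all genes.

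**Figure D5:**
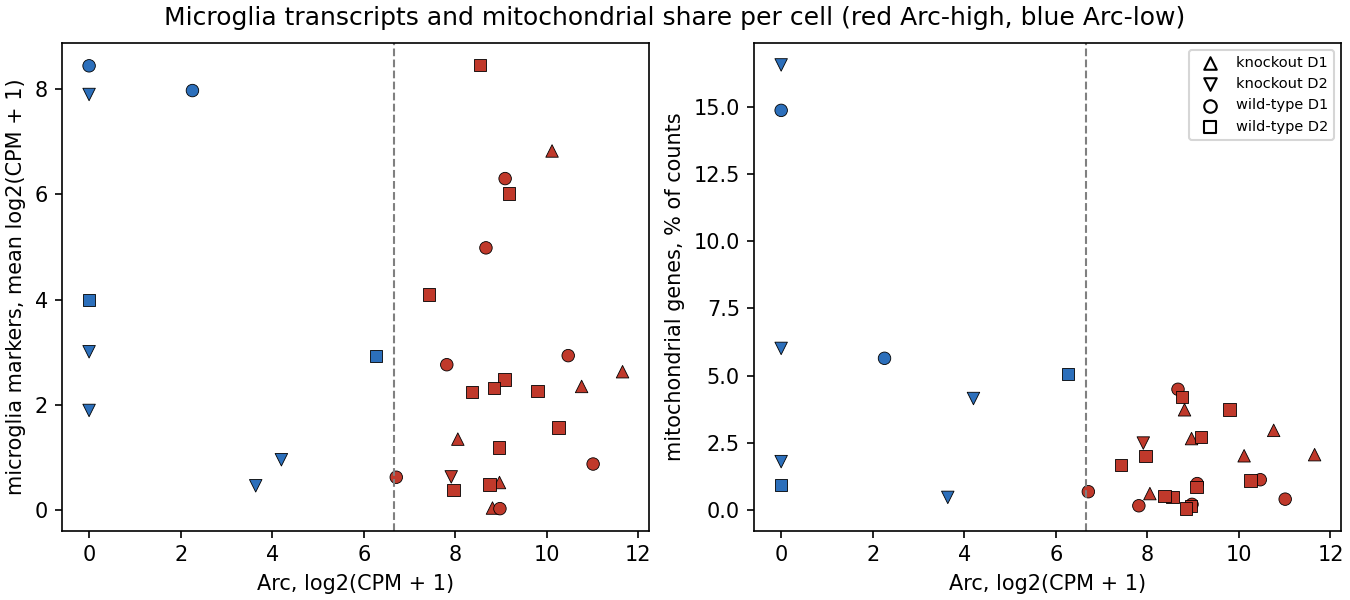
Mean level of the measured microglia markers, in log2(CPM + 1) (left), and share of counts in mitochondrial genes, in percent (right), against the Arc level of each cell; symbols give genotype and kind, red is Arc-high, blue is Arc-low and the dashed line is 100 Arc CPM. High microglia levels occur on both sides of the line, while shares above 10% belong to 2 Arc-low cells, at 14.9 and 16.6%.

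Markers of cortical projection types lay near or above the other genes. All 12 markers of layer 5 pyramidal tract neurons had differences above 0, as had 8123 of 11905 measured genes. Of the 12, 9 lay above the median of all genes, and the list median was 0.86 against 0.48. Past 2 log2 units higher was 1, beside 8.06% of all genes: Fezf2, the factor that specifies corticofugal neurons, which differed by 3.60. Its medians were 256 CPM in Arc-high and 0 CPM in Arc-low cells. Reads of it were in 23 of 25 Arc-high and 4 of 9 Arc-low cells. Fezf2 was higher within wild-type D1 (7.80), wild-type D2 (3.80) and knockout D2 cells (4.33). Of 12 measured markers of intratelencephalic and upper-layer neurons 1 was past 2 log2 units higher, beside 8.06% of all genes. None was past it lower, beside 0.941%, and the median was 0.73. The layer 6 and near-projecting list had a median of 0.50 and the general pyramidal list of 0.17. Leaving out 1 cell moved these 3 medians by over 1.5 times: the intratelencephalic one to 1.10 without knockout D2 cell 1 and to 0.37 without knockout D2 cell 6, the layer 6 one to 0.21 without knockout D1 cell 6, and the general one to as much as 0.38, without knockout D2 cell 2. The pyramidal tract list had a median of -0.55 in knockout cells alone and -0.17 without the cells above 1000 CPM of microglia markers, so its position rests on which cells are compared.

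Stress genes lay near the other genes without regard to kind and genotype, and above them with it. Of 20 measured heat shock and stress genes 3 were past 2 log2 units higher, beside 8.06% of all genes: Hsf1 at 2.89, Atf4 at 2.57 and Ddit3 at 2.32. The median was 0.62, against 0.48 over all genes. With kind and genotype as a term the median was 1.51, against 0.62 over all genes. This term compares cells within groups, so knockout D1 cells, all Arc-high, add nothing to it. What is left rests on 2 Arc-low cells in each wild-type kind and 1 Arc-high knockout D2 cell. Wild-type D1 cell 10, 1 of these, had a list mean of 2.62, the lowest of the Arc-low cells. The same limit holds wherever this term is used. The inducible Hspa1a and Hspa1b, known for their response to heat, differed by -0.32 and 0.13 and were read in 5 and 8 of 25 Arc-high cells, and in 2 and 2 of 9 Arc-low cells.

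Lists of basic cell machinery, drawn up only after the data had been seen, lay below the other genes over all cells, but 3 of the 5 did not with kind and genotype as a term. Of 83 measured cytosolic ribosomal protein genes none was past 2 log2 units higher, beside 8.06% of all genes. Past it lower were 7, beside 0.941%, and Rps7 (-2.28) was the lowest. The median of this list was -1.06. Within wild-type D1 cells it was -1.78, against 0.91 over all genes, and within wild-type D2 cells 0.16, against 0.59. The 13 protein genes of mitochondrial DNA had a median of -1.63. Of these, 4 were past 2 lower, beside 0.941% of all genes, among them Mt-nd4 (-2.32) and Mt-nd6 (-2.14). The mitochondrial share of counts given above moves with them. Nuclear genes of respiratory complex I (36 measured, median -0.12) and of ATP synthase (16 measured, median -0.18, Atp5c1 at 3.45) differed by less. With kind and genotype as a term their medians were 0.83 and 0.64, against 0.62 over all genes. Of 36 measured proteasome subunits 5 were past 2 higher, beside 8.06% of all genes: Psmd2, Psmd1 (2.87), Psmd8 (2.41), Psmb10 (2.30) and Psma5 (2.22). None was past 2 lower, beside 0.941%, yet the median was 0.29. With kind and genotype as a term the median was 1.51, against 0.62 over all genes.

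The 5 genes below were most like Arc in rank over all 34 cells, by Spearman correlation as a description: Prpf4, a splicing factor of the U4/U6 particle (0.67), Dusp1 (0.64), Hnrnph1, a splicing regulator (0.63), Vstm2a (0.62) and Dctn4, a subunit of dynactin (0.61). The 9087 genes considered had a median of 0.04 and a central 90% from -0.25 to 0.33. Prpf4 had reads in 14 of 25 Arc-high cells and in none of the 9 Arc-low cells. In summed counts it was at least 994-fold higher by the floor used above, which leaves out the spread between cells. Prpf4 was chosen for its likeness to Arc in these same cells, and it met the level filter through Arc-high cells only. Its separation is therefore a description of the choice. Over the 25 Arc-high cells alone, which also entered the choice of these genes, Prpf4 stood at 0.53, Dctn4 at 0.52, Hnrnph1 at 0.47, Dusp1 at 0.41 and Vstm2a at 0.34. Of the other activity genes Egr4 (0.57) and Junb (0.49) were highest there and Ppp1r15a (-0.56), Cebpb (-0.49) and Btg2 (-0.41) lowest, while Npas4 stood at 0.12 and Bdnf at -0.27. Both levels of a pair come from the same library in each cell and share its depth.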

How the data were processed

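The deposited counts are whole-number reads per gene symbol (22800 symbols), made by the authors from Nextera XT libraries of patch-pipette cytosol; Trimmomatic, STAR and featureCounts on GRCm38 are named in the submitters' processing notes, while the sources used here do not give their roles, versions or strand setting. The authors' deposited normalized signal table equals those counts times 1 factor per cell and served as an alternative. Left out were 2 columns per table that match no sample.

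CPM were computed on each cell's total. Measured genes averaged at least 1 CPM and were read in at least 10% of the 34 cells. A threshold of 2 log2 units, not a test, marks a gene as past the fold, because the labels name no animal and each state is 1 sample; how far spread between animals contributes was therefore not measured. Shares carry exact Clopper-Pearson intervals (95%), and folds against 0 reads use 3 counts in the summed Arc-low total as the floor. The highest Spearman correlation between any 2 cells was 0.557, so no library appeared to be a copy of another.

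Members and the 17 gene lists were chosen with earlier results of these data known, and 5 further lists after seeing these. Named genes averaged at least 10 CPM and were read in at least 33.3% of the cells of Arc-high or Arc-low; they had the same direction in both wild-type kinds, and the 12 per direction with the largest smallest difference on leaving out each cell were taken. All first-wave factors, Fmr1, the 2 to 4 members of largest difference per list and the 5 genes nearest Arc by Spearman correlation were added. Others named for their role (Homer1, Nptx2, Gadd45b, Creb1, Srf, Mef2c, Vgf, Scg2, Hspa1a, Hspa1b, Ppp1r15a, Btg2) were chosen after their values were seen. A few genes of the lists are not reported here.

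Positions and exon overlaps come from GENCODE vM21 and promoters from RefSeq (GRCm38.p6), matched by symbol. Alternatives were other cell and gene filters, pseudocounts, thresholds, scalings (edgeR 4.0.16 for TMM factors only), single genotypes, kinds and ages, and each cell left out. Scripts were tested on simulated data and ran in Python 3.11.15 (numpy 2.4.6, pandas 2.3.3, scipy 1.17.1, matplotlib 3.10.9) and R 4.3.3.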

Additional observations from a re-analysis of the deposited data

Results flagged for a closer look

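Values of 87 pairs of a group and a measure were examined for a cell standing apart from its group, and 12 were found. Wild-type D2 and Arc-high cells were not examined, because the criterion was set for smaller groups. The criterion is nominally met by chance in about 1 in 20 groups; its rate at these group sizes was not measured. Scores are means of log2(CPM + 1) over the measured members of a list. Knockout D1 cell 4 stood above its group with 33 activity-regulated genes at 100 CPM or more and an effector score of 6.30. Knockout D1 cell 6, which had the highest Arc, stood apart in its score for intratelencephalic and upper-layer markers, at 1.48, and for layer 6 and near-projecting markers, at 7.60. Knockout D2 cell 7 had 16.6% mitochondrial counts, and knockout D2 cell 1 a microglia score of 7.90. Wild-type D1 cell 10, an Arc-low cell, had 14.9% mitochondrial counts and stood apart from the wild-type D1 cells and from the Arc-low cells with a score of 2.28 for Arc partners. From the Arc-low cells it also stood apart in the scores for NMDA and L-type channels (1.26) and for heat shock genes (2.62). Knockout D2 cell 6 had a layer 6 score of 3.54, apart from the other Arc-low cells.

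Of the 20 cells that passed but had reads in fewer than 4000 symbols, 3 had at least 100 CPM of Arc: wild-type D2 cell 19 at 1773 CPM, wild-type D2 cell 5 at 1171 CPM and wild-type D1 cell 3 at 1073 CPM. These cells enter no comparison of gene levels.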

How the results depend on the processing

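The count of genes past 2 log2 units was 960 higher and 112 lower in Arc-high cells. It depended on which cells were compared and, in the same cells, on the pseudocount, the scaling and the threshold. The higher genes outnumbered the lower under each setting given here. Higher and lower counts were 1811 and 50 with at least 3000 symbols, 1512 and 341 on the authors' normalized values, 77 and 6 with a pseudocount of 10, and 2003 and 312 with kind and genotype as a term. They were 2424 and 479 in wild-type cells, 1518 and 951 in knockout cells, 3415 and 1168 in D1 cells, 1494 and 235 in D2 cells, and 2305 and 510 without cells of 32 days. At thresholds of 1 and 3 log2 units they were 3607 and 879, and 160 and 9. The lower count alone moved to 178 with at least 5000 symbols, 175 without 29 days and 229 without 30 days. In alternatives added after seeing the data it was 260 without cells over 10% mitochondrial counts and 252 without cells over 1000 CPM of microglia markers. Leaving out each cell gave 107 to 178 lower, the 178 without wild-type D1 cell 10.

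The Arc-high share was 51.85% over all passed cells, and among them 50% in wild-type D2 and 53.33% in wild-type D1 cells. It was 100% in wild-type D1 cells without cells of 30 days or without the microglia-rich cells. In knockout D2 cells it ran from 0 to 20% when each cell was left out. The heat shock median was 1.514 with kind and genotype as a term, and that of Arc mRNA regulation -0.02521 in knockout cells. In D1 cells, medians were 1.107 for signalling, 1.399 for Arc partners, 1.304 for NMDA and L-type channels, -6.253 for microglia, -4.748 for oligodendrocytes and -2.439 for interneurons. Nr4a1 reversed in wild-type cells (-1.26), in D1 cells (-1.009) and without cells of 32 days (-1.294). The cause was not tested.

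Every comparison rests on 9 Arc-low cells, 5 of them knockout D2. Many genes had no read in single cells, and such zeros set the size of the largest differences. The cause of these zeros was not tested. No paired analysis was possible because replicate numbers only name cells, each result comes from no test, and the labels tie no cell to an animal.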
